A study of Mus musculus with 12 samples.

Results

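Interferon-stimulated genes (ISGs) are the genes that a cell switches on when type I or type II interferon binds its receptors, and the ones followed here were 37 well-known mouse ISGs listed by symbol. Of these, 35 were found in the probe annotation of the array, and Ifi44 and Ifi203 were not matched there and are not analysed here. The array annotation named 16593 genes in all. Each ISG was represented by its brightest probe, the probe with the highest mean signal over the arrays, and 21 of the 35 genes had a single probe.

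BM-derived macrophages (BMDMs), grown from the femur marrow of wild-type Balb/c mice with M-CSF and then kept without it before treatment, were left untreated or treated for 1 h with human β-defensin 3 (hBD3), with LPS, or with LPS plus hBD3. LPS, a bacterial cell wall component, is sensed by TLR4, and hBD3 is a cationic antimicrobial peptide. The labels give LPS at 50 ng/mL and hBD3 at 5 mg/mL for the single treatments, and no dose for the combination. That unit of hBD3 differs from the one in the study's methods (μg/mL). Each group held 3 arrays, numbered 1 to 3 in every group, and according to the submitters' design note the 3 came from separate mice. Whether arrays with the same number in different groups share a mouse was not given in the sources used here. All 12 samples were of 1 strain, and age and sex of the animals were not given. Bulk RNA of a culture was measured, so fewer expressing cells and less RNA per cell cannot be told apart.

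Type I interferons (IFN-α and IFN-β) signal through JAK1 and TYK2 to the transcription factor complex ISGF3, which binds the interferon-stimulated response element (ISRE) in ISG promoters. In macrophages, TLR4 induces Ifnb1 through the adaptor TRIF and the transcription factor IRF3, and the IFN-β that is released then acts back on the cells. Resting macrophages hold a basal level of many ISGs through low constitutive interferon signaling.

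The core of the ISRE was searched for as GAAANNGAAA, or TTTCNNTTTC on the other strand, in the RefSeq promoter windows of GRCm38.p6, which run from 250 bases before to 50 bases after the annotated start. Of the 37 ISGs, 27 had a promoter entry, and 17 of these held at least 1 match. The same letters occurred in 3.99% of all genes and 3.44% of all promoters in the table. Overlapping matches were counted separately. Stretches of these windows are shown with the matches in capitals for 4 genes that were higher on the arrays numbered 1 in every group, and for 2 genes (Irgm1 and Bst2) whose brightest probe did not pass that test. They are written 5′ to 3′ along the gene's strand.
Ifit3 (chr19:34583369-34583428, plus strand): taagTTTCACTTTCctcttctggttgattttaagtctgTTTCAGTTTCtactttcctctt
Isg15 (chr4:156200864-156200913, minus strand): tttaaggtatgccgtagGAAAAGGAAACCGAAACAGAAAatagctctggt
Rsad2 (chr12:26456548-26456587, minus strand): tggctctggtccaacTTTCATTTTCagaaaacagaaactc
Gbp2 (chr3:142620588-142620627, plus strand): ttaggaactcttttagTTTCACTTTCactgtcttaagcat
Irgm1 (chr11:48871426-48871465, minus strand): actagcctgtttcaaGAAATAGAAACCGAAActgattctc
Bst2 (chr8:71537573-71537612, minus strand): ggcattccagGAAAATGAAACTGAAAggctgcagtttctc

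Counted from the transcription start, the 2 matches of Ifit3 began at -156 and -122, and the 3 overlapping matches of Isg15 at -78, -72 and -66. Rsad2 and Gbp2 held 1 match each, at -120 and -59. The pairs of overlapping matches in Irgm1 and Bst2 show that the letters were also present in genes without a call. Among ISGs with a promoter entry, 9 of the 17 that were called higher in replicate 1 held a match, and so did 7 of the 8 measured ones that were not called.

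Signals are given as log2 of the quantile-normalized BeadStudio signal, on which 1 unit is a doubling. A probe was called detected on an array when its detection p was under 0.01, and 8958 to 9923 of the 25697 probes were detected per array, with the lowest number on LPS replicate 1. Of the 35 ISGs, 25 were detected on all 12 arrays. Ddx58 was detected on 11 arrays, Ifi47 on 10 and Isg20 on 2. The other 7 (Ifit1, Mx1, Ifih1, Iigp1, Ifi204, Ifi205 and Xaf1) were not well above background on any array, and their signals lay between 5.15 and 5.80. Macrophage identity was checked with 7 measured markers of a list of 12, of which 6 were detected on all arrays, among them lysozyme (Lyz2, 14.14 to 14.34) and Cd14 (12.94 to 13.64).

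In the fit without replicate number, no ISG was called at 1 h with LPS, hBD3 or their combination. Among the 35 genes, 0 passed an adjusted p of 0.05 (limma, over all probes) in LPS against untreated BMDMs, where 0.105% of all probes passed, and 0 had an unadjusted p under 0.05 (3.23% of all probes). With the replicate number as a block, 1 of the 35, Isg15, passed in this comparison (adjusted p = 0.033), with 0.28% of all probes. In that blocked fit Isg15, Rsad2, Isg20, Oasl1, Gbp3, Usp18, Gbp2 and Mx2 (higher) and Dhx58 (lower) had an unadjusted p under 0.05. The share of all probes at that cut was not computed for the block in any comparison. Whether the ISGs named at it exceed that share is therefore not known. Without the block, 0 of 35 passed in LPS plus hBD3 against LPS (0.0545% of all probes) and 0 were under 0.05 unadjusted (3.7%). With the replicate number as a block, 0.163% of all probes passed that comparison and again 0 of the 35 ISGs. In that blocked fit Isg15, Parp14, Rsad2, Gbp3, Isg20, Gbp2, Ifit2 and Oasl1 (lower) and Dhx58 and Irgm1 (higher) had an unadjusted p under 0.05. Without the block, no ISG and 0% of probes passed in hBD3 against untreated or in LPS plus hBD3 against untreated. The same held for the difference between the hBD3 effects with and without LPS. In these comparisons 0 ISGs had an unadjusted p under 0.05 without the block (2.39%, 2.47% and 2.56% of all probes). With the block, 0 of the 35 passed in any of them (0%, 0.00778% and 0.0778% of all probes). The blocked unadjusted p was under 0.05 for Isg15, Ifi35 and Dhx58 (higher) and Eif2ak2 (lower) with hBD3. It was so for Igtp and the undetected Ifi205 (lower) with LPS plus hBD3. For the difference it was so for Isg15 (-0.59, blocked adjusted p = 0.084), Isg20, Rsad2, Gbp2 and Usp18 (lower). The median log FC (log2 fold change) of the 35 ISGs was 0.02 with LPS, -0.01 with hBD3, -0.02 with LPS plus hBD3 and -0.02 for LPS plus hBD3 against LPS, and over all probes the medians were 0.01 or less in size. These comparisons share control arrays and are not independent of each other.

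The error depended on whether replicate number was in the fit. Over the 27 ISGs detected on at least 6 arrays, the standard error (SE) of the log FC with LPS had a median of 0.33 without the number, with a range of 0.08 to 0.76, and was highest for Ifit3. With the number as a block the median SE was 0.10. The LPS effects ran from a log FC of -0.44 (Ddx58, SE 0.30) to 0.46 (Rsad2, SE 0.64). The spread between arrays of 1 group went mostly with the replicate number.

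Most of the ISGs differed between the replicate numbers of the arrays. With group means and replicate number in 1 limma fit, 22 of the 35 ISGs were higher on the 4 arrays numbered 1 than on the 8 numbered 2 and 3, against 6.57% of all probes, and 0 were lower, against 5.26% of all probes. On 17 of 35 ISGs every replicate 1 array lay above each of the other 8 arrays (4.32% of all probes). Of the 27 ISGs detected on at least 6 arrays, 21 were called higher and 0 lower (15.5% and 13.1% of the probes detected on as many arrays), and 16 did not overlap (9.78%). The median difference of the 35 ISGs was 0.55 on the log2 scale, and that of all probes 0.00. An F-test over the 3 numbers passed for 21 of the 35 ISGs and for 10.6% of all probes. Both the genes and this contrast were taken up with earlier results of these arrays known, so the counts are a description and the p-values are not independent evidence. If arrays of 1 number do share a mouse, the 4 arrays numbered 1 stand for 1 animal.

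**Figure D1:**
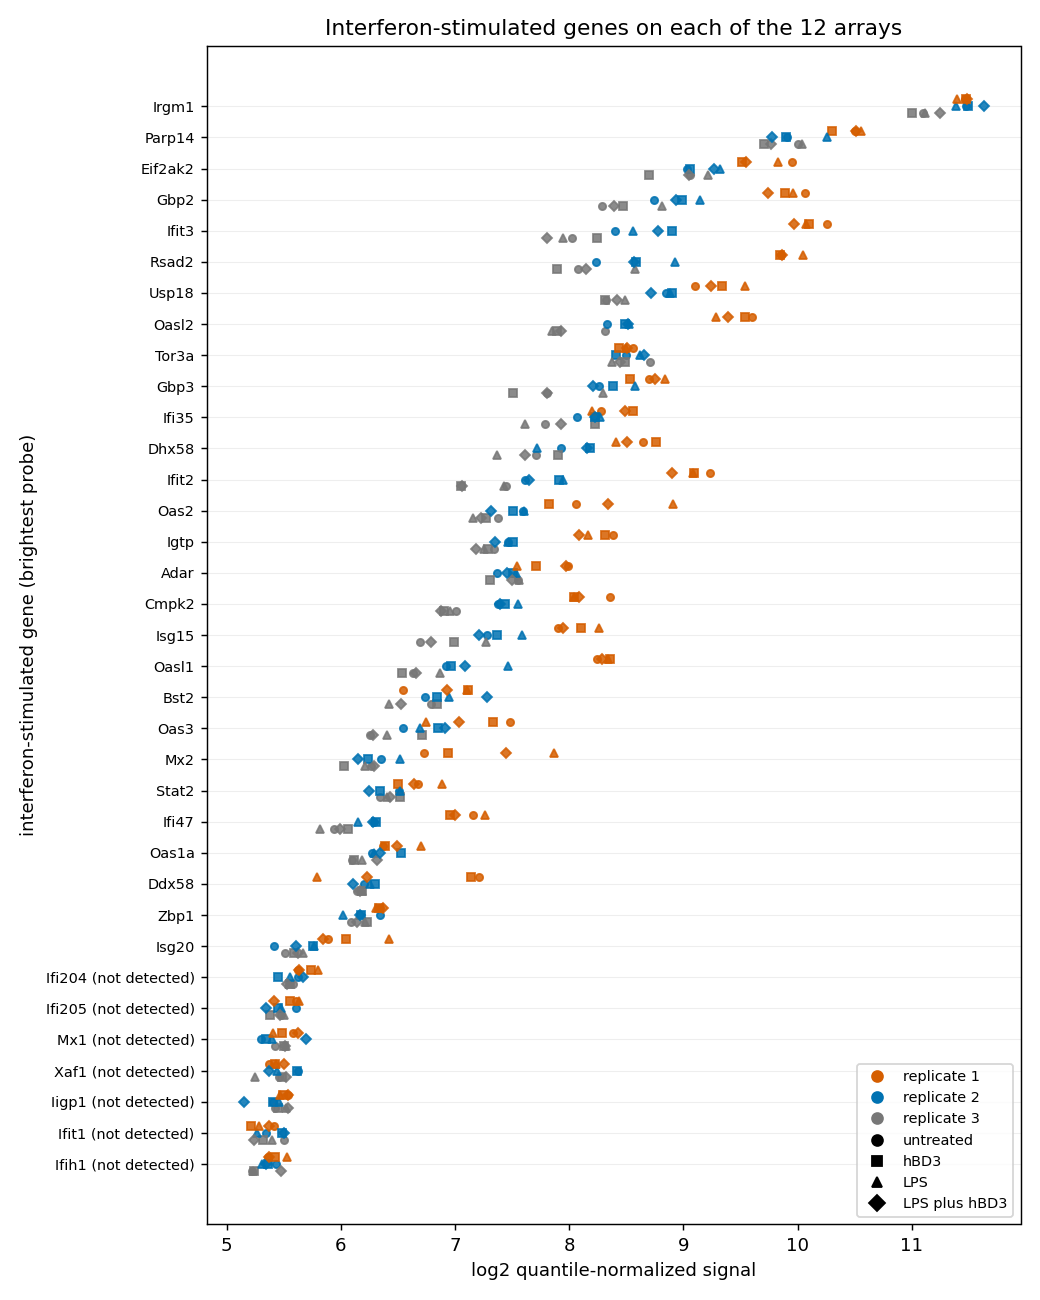
Log2 quantile-normalized signal (horizontal axis) of each of the 35 ISGs (rows, sorted by mean signal) on the 12 arrays, with colours for the replicate number and symbols for the group. For 17 genes the 4 replicate 1 arrays (orange) lie above all other arrays, and the 7 genes labelled as not detected lie at the background, between 5.15 and 5.80.

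The IFIT proteins bind viral RNA that lacks the modifications of cellular mRNA caps, and 2 of the 3 IFIT genes were detected. Ifit3 had signals of 10.26, 10.10, 10.08 and 9.97 on the replicate 1 arrays of the untreated, hBD3, LPS and LPS plus hBD3 groups, 8.40, 8.90, 8.55 and 8.78 on the replicate 2 arrays and 8.02, 8.25, 7.94 and 7.81 on the replicate 3 arrays. All replicate 1 arrays were high and the 4 treatments of a number lay close together, so that replicate 1 exceeded the mean of the others by 1.77 (SE 0.09), or 3.41-fold (adjusted p = 1.7e-06 from limma). Because of this spread the untreated group had a mean of 8.90 ± 1.20 (SD, n = 3) and the LPS group 8.86 ± 1.10. Ifit3 has a close copy, Ifit3b, and the array annotation does not say whether the probe tells them apart. Ifit2 had 9.24, 9.09, 9.08 and 8.90 on the replicate 1 arrays, 7.61 to 7.94 on replicate 2 and 7.05 to 7.44 on replicate 3, with no overlap between any of the numbers. Its difference was 1.56 (SE 0.08, adjusted p = 2.1e-06), and a second Ifit2 probe gave 1.26 (adjusted p = 3.5e-06).

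The OAS genes encode the oligoadenylate synthetases, which sense double-stranded RNA and activate RNase L, and the related OAS-like proteins of antiviral defense. Of the 5 OAS genes, all detected on 12 arrays, 4 were higher in replicate 1. Oasl1 had signals of 8.25, 8.36, 8.34 and 8.29 on the replicate 1 arrays in the order above, 6.92, 6.97, 7.46 and 7.09 on replicate 2 and 6.64, 6.53, 6.87 and 6.66 on replicate 3. The replicate 1 arrays of all 4 treatments lay close together and stood 1.42 (SE 0.07, adjusted p = 1.2e-06) above the rest. Oasl2 followed with 1.22 (SE 0.09), Oas2 with 0.90 (SE 0.14) and Oas3 with 0.57 (SE 0.12), the last with overlapping arrays. For Oas2 the replicate 1 arrays themselves were spread, at 8.06, 7.83, 8.91 and 8.34, with the arrays given LPS highest. Oas1a ran from 6.37 to 6.70 in replicate 1 and from 6.09 to 6.53 elsewhere (difference 0.22, adjusted p = 0.0795), and passed when arrays were scaled by their median instead of quantile normalized (0.31, adjusted p = 0.0168). Oas1a has close copies such as Oas1g, and whether its probe tells them apart was not given.

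Mx2, a dynamin-like GTPase of antiviral defense, was higher in replicate 1 by 0.99 (SE 0.14, adjusted p = 0.00104). Its replicate 1 arrays were at 6.72, 6.93, 7.86 and 7.44, against 6.03 to 6.52 on the other 8 arrays. As for Oas2, the 2 replicate 1 arrays with LPS were above the 2 without it, while the replicate 2 and 3 arrays with and without LPS overlapped. The LPS log FC of Mx2 was 0.42 (SE 0.44).

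ISG15 is a ubiquitin-like protein that is attached to other proteins, and USP18 removes it and also dampens signaling at the type I interferon receptor. Isg15 had 7.90, 8.11, 8.26 and 7.95 on the replicate 1 arrays, 7.28, 7.37, 7.59 and 7.21 on replicate 2, and 6.69, 6.99, 7.27 and 6.79 on replicate 3. Replicate 1 was above all others (difference 0.91, SE 0.05, adjusted p = 2.4e-06) and replicate 2 was on average above replicate 3 (0.43, adjusted p = 0.0171), with overlapping arrays. Within each number the LPS array was also the highest of the 4 treatments. LPS minus untreated was 0.36, 0.31 and 0.58 for numbers 1 to 3, a mean of 0.42 (SE 0.40 and adjusted p = 0.9997 without the block, SE 0.07 and adjusted p = 0.033 with it). LPS plus hBD3 minus LPS was -0.31, -0.38 and -0.48, a mean of -0.39 (SE 0.40 without the block and not called, SE 0.07 and adjusted p = 0.071 with it). Usp18 had 9.10 to 9.54 in replicate 1, 8.71 to 8.90 in replicate 2 and 8.31 to 8.49 in replicate 3, with no overlap (difference 0.69, SE 0.06, adjusted p = 4.8e-05).

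**Figure D2:**
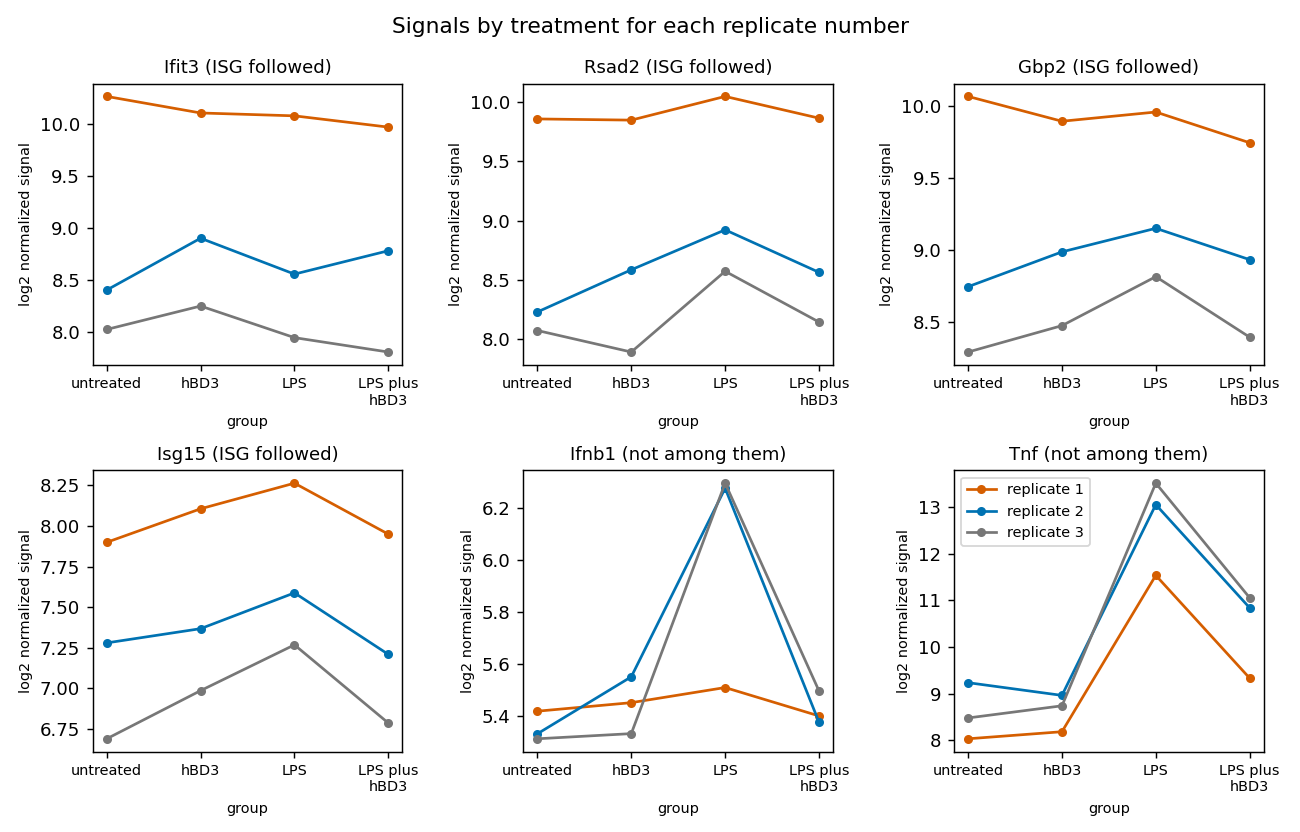
Log2 quantile-normalized signal (vertical axis) in the 4 groups (horizontal axis), with 1 line for each replicate number, for 4 ISGs and for Ifnb1 and Tnf, which are not among them. The Ifit3, Rsad2, Gbp2 and Isg15 lines are separated by number, with replicate 1 on top by 0.91 to 1.77, while Tnf was raised on every LPS array and was lowest in replicate 1.

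Among the nucleic acid sensors and RNA-binding enzymes, 5 of 6 were detected and 3 were called. Dhx58 (LGP2, a regulator of RIG-I-like sensing) was higher in replicate 1 by 0.76 (SE 0.06, adjusted p = 1.8e-05), with 8.41 to 8.76 on those arrays and at most 8.19 on the others. Eif2ak2 (PKR, a kinase that stops translation on binding double-stranded RNA) was higher by 0.62 (SE 0.08), again without overlap. Adar, which edits adenosine in double-stranded RNA, was higher by 0.33 (SE 0.09, adjusted p = 0.0286), a call that was lost on leaving out any 1 of 7 arrays (adjusted p from 0.0516 without untreated replicate 2 to 0.150 without LPS plus hBD3 replicate 1). Zbp1, a sensor of Z-form nucleic acids, had 6.31 to 6.37 in replicate 1 and 6.02 to 6.34 elsewhere (difference 0.17, adjusted p = 0.111).

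Ddx58 (RIG-I, a sensor of viral RNA ends) had a different pattern. It had signals of 7.21, 7.14, 5.79 and 6.23 on the replicate 1 arrays in the order untreated, hBD3, LPS and LPS plus hBD3, and 6.11 to 6.30 on the 8 others. The 2 replicate 1 arrays without LPS were thus high and those with LPS were not, and on LPS replicate 1 the probe was not detected. The difference over all arrays was 0.40 (SE 0.19, adjusted p = 0.255), and without LPS replicate 1 it was 0.68 (adjusted p = 0.00293). LPS minus untreated was -1.42 for number 1, 0.05 for number 2 and 0.04 for number 3.

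Some dimmer probes of other ISGs were also low on LPS replicate 1, as were many probes outside the ISGs. Their count is too small to set the ISG probes apart. Of 21 further probes of the 35 genes, 14 were detected on at least 1 array, and 3 of these lay more than 0.5 below the mean of LPS replicates 2 and 3 on that array, as did 14.6% of all probes detected on at least 1 array. The dimmest Usp18 probe had 5.46 there and 6.35 and 6.36 on LPS replicates 2 and 3, one of Adar 5.75 against 6.68 and 6.80, and one of Tor3a 5.40 against 6.69 and 6.89. Both dim Ifit3 probes were high on untreated and hBD3 replicate 1 (6.71 and 6.61 for one, 6.72 and 6.51 for the other) and at 5.81 and 5.47 on LPS replicate 1, where the brightest Ifit3 probe had 10.08. The probes of 1 gene thus differed on this array, and for such genes the call depended on the probe. Of the 14 further probes, 6 were higher in replicate 1 and 1, the dim one of Tor3a, was lower (-0.64, adjusted p = 0.0164). Over all probes 6.57% were higher and 5.26% lower, and over those detected on at least 6 arrays 15.5% and 13.1%.

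The interferon-inducible GTPases, guanylate-binding proteins (GBPs) and immunity-related GTPases (IRGs) that act on the vacuoles of intracellular pathogens, included 5 detected genes of 6. Gbp2 had 10.06, 9.89, 9.96 and 9.74 on the replicate 1 arrays, 8.74, 8.99, 9.15 and 8.93 on replicate 2 and 8.29, 8.47, 8.81 and 8.39 on replicate 3, and replicate 1 was higher by 1.19 (SE 0.08, adjusted p = 7.5e-06). Igtp (IRGM3) had 8.38, 8.31, 8.17 and 8.09 on the replicate 1 arrays and 7.18 to 7.51 on the others (difference 0.88, SE 0.05, adjusted p = 1.9e-06). Ifi47 (IRG-47) had 6.95 to 7.27 on the replicate 1 arrays and 5.82 to 6.30 on the others, 2 of which did not detect it (difference 0.99, SE 0.07). Gbp3 was higher by 0.60 (SE 0.08) with overlapping arrays. Irgm1, a regulator of the other IRGs, differed in another way, with 11.40 to 11.49 in replicate 1, 11.39 to 11.63 in replicate 2 and at most 11.25 in replicate 3. Replicates 1 and 2 overlapped and replicate 3 was lower (replicate 2 minus 3, 0.38, SE 0.06, adjusted p = 0.0260), so that the difference of replicate 1 was 0.15 (adjusted p = 0.0872). It was 0.46 (adjusted p = 0.000454) with median scaling, and a dimmer Irgm1 probe gave 0.49 (adjusted p = 0.000386).

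Of the other effectors, Rsad2 (viperin, a radical SAM enzyme that makes a chain-terminating nucleotide) had 9.86, 9.85, 10.05 and 9.86 on the replicate 1 arrays, 8.23, 8.59, 8.92 and 8.56 on replicate 2 and 8.08, 7.89, 8.57 and 8.15 on replicate 3. Replicate 1 was higher by 1.53 (SE 0.08, adjusted p = 1.9e-06), and within each number the LPS array was the highest, by 0.19, 0.69 and 0.50 over untreated. Cmpk2, its genomic neighbour and a nucleotide kinase, was higher by 0.94 (SE 0.06) with 8.04 to 8.36 against 6.88 to 7.55. Parp14, an ADP-ribosyltransferase, was higher by 0.55 (SE 0.06), and Ifi35 by 0.34 (SE 0.08, adjusted p = 0.0152). The Ifi35 call was lost without hBD3 replicate 1 (adjusted p = 0.0508) or LPS plus hBD3 replicate 1 (adjusted p = 0.0814). Isg20, an exonuclease that degrades RNA, was detected on hBD3 and LPS replicate 1 (6.04 and 6.42) and on no other array. Its plain difference was 0.43 (SE 0.07, adjusted p = 0.00266 from limma), taken mostly from undetected signals. Set against the lowest signal of detected probes, the replicate 1 mean was 1.07-fold higher. That mean includes undetected arrays, so the size of the difference is not known.

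Bst2 (tetherin, which holds budding virus at the cell surface) and Tor3a (torsin 3A) did not follow the number. Bst2 ran from 6.55 to 7.11 in replicate 1, with untreated replicate 1 lower than both other untreated arrays, and from 6.42 to 7.28 elsewhere (difference 0.12, SE 0.13). Tor3a lay between 8.38 and 8.70 on all arrays, with a difference of -0.03 (SE 0.06). Stat2, a subunit of ISGF3, was higher by 0.26 (SE 0.07, adjusted p = 0.0357), with overlap, and its call was lost in 14 of 21 alternative settings. The p200 genes Ifi204 and Ifi205, DNA-binding proteins, were not detected, and neither was called.

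The order among the other 2 numbers was also shared. Replicate 2 exceeded replicate 3 in 31 of the 35 ISGs, with a median of 0.18 (0.002 over all probes), and 7 were called (0.366% of all probes). On 9 of 35 every replicate 2 array lay above every replicate 3 array (4.07% of all probes). Of the 27 ISGs detected on at least 6 arrays, 7 were called (0.974% of probes detected as often) and 9 did not overlap (7.64%). The called genes were Ifit2, Ifit3, Oasl1, Isg15, Usp18, Irgm1 and Cmpk2, and 6 of these were also called for replicate 1. In 6 ISGs the difference was more than 1 log2 unit between replicate 1 and the rest (0.296% of all probes). They were Ifit3, Ifit2, Rsad2, Oasl1, Oasl2 and Gbp2. In 19 of the 27 ISGs detected on at least 6 arrays replicate 1 was the highest array in all 4 groups, as in 14.5% of all probes detected as often.

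**Figure D3:**
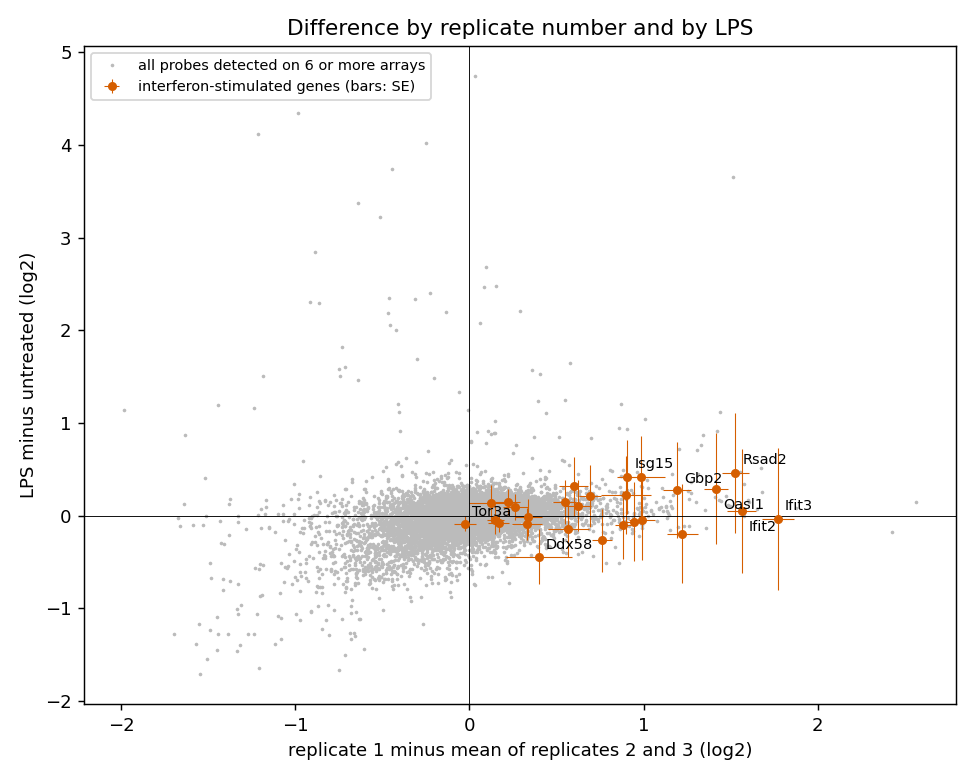
Log FC of LPS against untreated (vertical axis, log2) and difference of replicate 1 from the mean of replicates 2 and 3 (horizontal axis, log2) for the 27 ISGs detected on at least 6 arrays (orange, bars are SE from the 2 limma fits) and for all probes detected as often (grey). The ISGs lie between -0.44 and 0.46 with LPS and reach 1.77 by number.

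The sum of squares of each ISG over the 12 arrays was split by replicate number, treatment and the rest. Replicate number held a median of 74.2% over the 35 ISGs and treatment 11.4%, and number held more than 50% in 25 of 35, against 18.9% of all probes. Among the 27 ISGs detected on at least 6 arrays, the median for number was 76.3%, compared with 37.5% over all probes detected as often. The largest shares by number were those of Ifit3 (96.9%), Cmpk2 (96.7%) and Igtp (96.4%), and Ifi47 had the smallest share by treatment (0.152%). Tor3a (4.80%), Ddx58 (22.5%) and Bst2 (31.3%) were lowest by number among these.

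**Figure D4:**
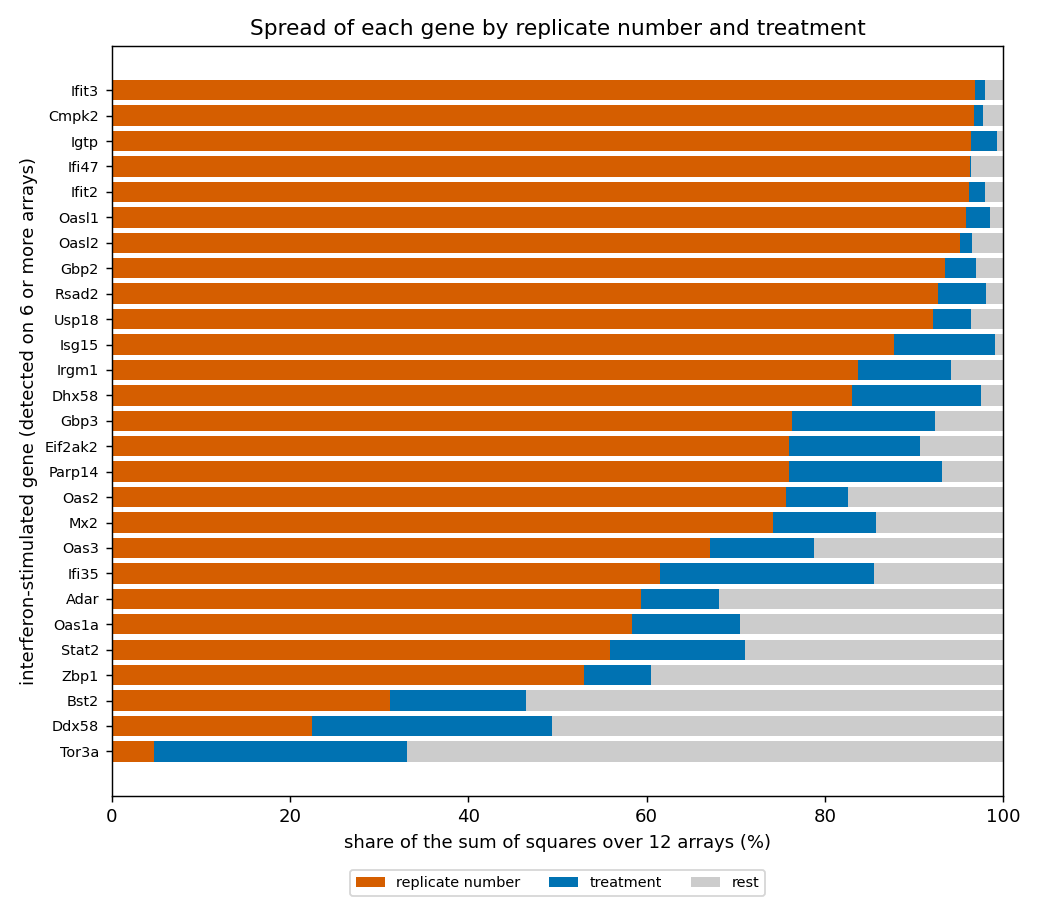
Share of the sum of squares over 12 arrays (horizontal axis, %) held by replicate number (orange), treatment (blue) and the rest (grey) for the 27 ISGs detected on at least 6 arrays, sorted by the share of number. The share of number runs from 4.80% for Tor3a to 96.9% for Ifit3.

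The difference by number was present with and without LPS. In a fit to the 6 untreated and hBD3 arrays alone 22 of the 35 ISGs were higher in replicate 1 (3.98% of all probes), with a median difference of 0.52, and in a fit to the 6 arrays with LPS 17 were (5.5% of all probes), with a median of 0.47. Both fits were added after the data were seen. Oas3, Adar, Isg20, Ifi35 and Stat2 were called over all 12 arrays and lost their call in the arrays with LPS (adjusted p = 0.110, 0.294, 0.0527, 0.0825 and 0.0505). In the arrays without LPS, Stat2 lost its call (adjusted p = 0.474) and Ddx58 was higher by 0.97 (adjusted p = 0.000159). Whether the difference by number itself differed with LPS was not tested.

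A list of further interferon-induced genes was described in the same fit. Of 68 genes listed, 53 were measured, 37 of them detected on at least 6 arrays. In replicate 1, 24 of the 53 were higher, 2 were lower and 27 were not called, with a median of 0.25. Over all probes 6.57% were higher and 5.26% lower, and over those detected on at least 6 arrays 15.5% and 13.1%. With LPS, 0 of the 53 were called without the block. The lists were not tested against each other. Fcgr1, the high-affinity IgG receptor, had a difference of 1.13 (SE 0.04), the IFN-induced transcription factor Irf7 1.24 (SE 0.13), the membrane protein Ly6e 0.99 (SE 0.15), the large GTPase Gvin1 0.81 (SE 0.06) and the IRG Irgm2 0.81 (SE 0.06). The chemokine gene Cxcl10 had 7.00, 7.12, 7.34 and 7.29 on the replicate 1 arrays, 6.05, 6.12, 7.17 and 6.25 on replicate 2 and 5.77, 5.84, 7.11 and 5.93 on replicate 3, so that replicates 2 and 3 were high with LPS alone and replicate 1 was high in all 4 groups (difference 0.91, SE 0.14). Its LPS log FC was 0.93 (SE 0.42, adjusted p = 0.9997). The 2 lower ones were Cd274, which encodes PD-L1 (-0.39), and Apobec1 (-0.19).

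Of 33 listed genes of interferon production and signaling, 30 were measured, 21 of them on all arrays, and 8 were higher and 5 lower in replicate 1, with a median near 0. Of all probes detected on at least 6 arrays, 15.5% were higher and 13.1% lower. The receptor chains Ifnar2 (0.35) and Ifngr1 (0.62), the kinase Jak2 (0.45), Irf2 (0.42) and the TLR4 adaptor Ticam2 (0.78) were among the higher ones. The lower ones included Irf1 (-0.75), Irf8 (-0.48) and Ifngr2 (-0.31). Irf1 had 10.37, 11.14 and 11.07 in untreated replicates 1 to 3 and 11.85, 12.62 and 12.86 with LPS, higher with LPS in every number, with a log FC of 1.58 (SE 0.32, adjusted p = 0.237 without the block and 3.1e-05 with it). Ifnb1 itself was detected on 2 arrays, LPS replicates 2 and 3, at 6.28 and 6.30, while LPS replicate 1 was at 5.51 and all other arrays lay between 5.31 and 5.55. None of the 4 measured IFN-α genes and neither Ifng nor Ifnar1 was detected on any array.

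Early LPS targets were raised on the same arrays. Of 10 listed, 8 were called with LPS (0.105% of all probes). Tnf had 8.03, 9.23 and 8.48 in untreated replicates 1 to 3 and 11.54, 13.05 and 13.51 with LPS (log FC 4.12, adjusted p = 0.0165), and Cxcl1, a neutrophil-attracting chemokine, had a log FC of 4.75 (adjusted p = 0.000108). In contrast with the ISGs, 6 of these 10 were lower in replicate 1 and 1, Il1b, was higher. Of all probes detected on at least 6 arrays, 13.1% were lower and 15.5% higher.

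Markers of other cell types were compared across the numbers. Of 10 plasmacytoid dendritic cell markers, Tcf4 was detected on all arrays and was higher in replicate 1 (0.31), and 8, Siglech and Ccr9 among them, were detected on none, with mean levels of 6.06 to 6.09 over the list in replicate 1 and 5.99 to 6.08 in the others. Of 9 conventional dendritic cell markers 8, Flt3 and Zbtb46 among them, were on no array, and 0 were called. All 10 measured T, NK and B cell markers were not detected on any array. Of 11 neutrophil and granulocyte precursor markers S100a8 was detected on all arrays and was higher in replicate 1 (0.48), and 9, S100a9 and Elane among them, were on none (mean levels of 5.71 to 5.78 in replicate 1 and 5.64 to 5.79 in the others). Of 7 stromal and erythroid markers Sparc (-0.84), Dcn (-0.46) and Col1a1 (-0.41) were lower in replicate 1, with mean levels over the list of 5.63 to 5.74 against 5.74 to 6.14 in the others. Of the 7 measured macrophage markers 2, Mertk (0.87) and Cd14 (0.42), were higher in replicate 1 and 5 were not called, with a median of 0.06. Xist was on no array, the Y-linked Eif2s3y was detected on all 12, Kdm5d on 7 and Uty on 8, and 0 of these 4 were called. For comparison, 6.57% of all probes were higher and 5.26% lower in replicate 1. Among probes detected on at least 6 arrays it was 15.5% and 13.1%. The part of these marker genes in the difference of the ISGs was not tested.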

How the data were processed

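RNA of 12 BMDM samples was hybridized to Illumina MouseRef-8 v2.0 BeadChips. The deposited table holds, per the file headers, a BeadStudio signal (intensity on a linear scale, not normalized between arrays) and a detection p-value against negative control beads for each probe and array. A second deposited table holds intensities that the authors had quantile normalized. No source used here gives the BeadStudio version, the slide or the scan date, so no batch could be tested. The submitters' processing notes name limma.

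Signals were quantile normalized, taken to log2 and tested with limma 3.58.1 in R 4.3.3, with a mean for each of the 4 groups, all 12 arrays and Benjamini-Hochberg adjustment over 25697 probes (threshold 0.05). No background correction or filter was applied. Replicate number was added as a factor to compare numbers. The fit was tested on simulated data whose noise was independent between arrays. Probes given an LPS effect there had no replicate effect. The simulation thus does not show what the fit without the block recovers for the ISGs. The number of arrays limits the precision, and p-values measure the spread between these arrays. All listed ISGs found were described, by their brightest probe. From the other lists the genes named were those that passed a test or differed most by number, with Tnf and Cxcl1 among the early LPS genes. The genes most like the ISGs were the 15 with the highest Pearson r. Members and lists were chosen with earlier results of these data known. Of the 35 ISGs, 35 matched RefSeq by gene ID.

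Equal replicate numbers were checked for pairing by the correlation of deviations from group means over all probes. It was 0.384 to 0.662 for LPS with LPS plus hBD3 and 0.379 to 0.621 for untreated with hBD3. For untreated with LPS plus hBD3 it was 0.181 to 0.514, and these pairs of groups were taken as paired. For untreated with LPS it was 0.073 to 0.368, where 1 of 3 values was under 0.1, so this pair was not. The main treatment tests left the replicate number out, also for the groups taken as paired, so their errors include the spread between numbers. Over the 27 ISGs detected on at least 6 arrays the median SE with LPS was 0.33 without the block and 0.10 with it. A missing call without the block thus does not show that an ISG did not respond. Block values are an alternative in every treatment comparison. This pairing comes from the data, as the labels do not state it. Alternatives were background correction (neqc-type, offset 16), median scaling, the authors' normalized intensities, a filter on dim probes, array weights, a trended robust variance, the compared groups only, the replicate block, all probes of the ISGs and leaving out each array.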

Additional observations from a re-analysis of the deposited data

How the results depend on the processing

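Of the 22 ISGs higher in replicate 1, 17 kept the call under every alternative run, and Adar, Stat2, Ifi35, Oas3 and Isg20 lost it under at least 1. Oas1a, Ddx58, Zbp1 and Irgm1 gained a call under at least 1. Leaving out single arrays gave 19 to 22 calls, and the median difference ran from 0.44 (without untreated replicate 1) to 0.64 (without LPS replicate 1). The median of 0.55 was 0.65 with background correction, 0.70 with median scaling, 0.69 on probes detected on at least 3 arrays, 0.35 over all probes of the ISGs and 0.47 on the LPS and LPS plus hBD3 arrays alone.

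In the treatment comparisons 1 of 3600 values of single ISGs under an alternative was called. These values are reruns of the same 12 arrays, and only the replicate block took the replicate number out of the error. With the replicate block, Isg15 passed in LPS against untreated (1 ISG, adjusted p = 0.033, log FC 0.42), where the deviations of replicate 2 correlated by 0.073. The block changed no other call of an ISG. For 12 of 12 arrays the best match in another group had the same number, a hint from the data and not from the design. Over all probes the block moved the calls from 27 to 72 with LPS, from 0 to 2 with LPS plus hBD3, from 14 to 42 for LPS plus hBD3 against LPS and from 0 to 20 for the difference of the hBD3 effects.

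The median of the ISGs for LPS plus hBD3 against untreated was -0.19 with median scaling and -0.037 over all their probes. For LPS plus hBD3 against LPS it was -0.24 with median scaling, -0.064 on probes detected on at least 3 arrays and 0.011 with array weights. For the difference of the hBD3 effects it was -0.26 with median scaling. Leaving out single arrays moved these medians between -0.084 (without LPS replicate 1) and 0.21 (without untreated replicate 1) for LPS, -0.15 and 0.16 for hBD3, -0.19 and 0.21 for LPS plus hBD3, -0.27 and 0.12 for LPS plus hBD3 against LPS, and -0.26 and 0.12 for the difference, with 0 ISGs called each time. The direction of these medians is thus not settled. The cause was not tested.

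Over all probes, LPS gave 27 calls, and 6 with the compared groups only, 44 with array weights and 19 to 44 on leaving out single arrays (44 without LPS replicate 1). LPS plus hBD3 against LPS gave 14, and 9 with background correction, 0 with the compared groups only and 9 to 29 on leaving out arrays (29 without LPS replicate 1). The difference of the hBD3 effects gave 0, and 5 with median scaling, 7 on probes detected on at least 3 arrays, 12 with array weights, 8 with a trended robust variance and up to 17 on leaving out arrays (without LPS replicate 1). The replicate 1 difference gave 3041, and 1893 on the arrays without LPS alone and 1971 to 3268 on leaving out arrays. For the 7 ISGs not well above background, a difference could not be seen on this array.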

Other observations

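The pattern of the ISGs over the 12 arrays was shared with genes outside the interferon lists. As a description, the 27 ISGs detected on at least 6 arrays were averaged after centring each gene, and 6720 other genes detected as often were ranked by Pearson r with that mean. The points share the 12 arrays and their normalization, and 262 of the genes had an r over 0.9. The 15 with the highest r (0.978 to 0.992) were Smpdl3b, Endod1, Fcgr1, 1700025G04Rik, Trmt2b, Trps1, Milr1, Lsp1, Nectin3, Arg2, Lpcat2, Tgm2, Slc2a6, Ass1 and Axl. Of these, 1 (Fcgr1) was on the list of further interferon-induced genes.

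Lsp1, an actin-binding protein of leukocytes, had signals of 11.76, 11.80, 11.87 and 11.65 on the replicate 1 arrays of the untreated, hBD3, LPS and LPS plus hBD3 groups, 10.11 to 10.46 on replicate 2 and 9.33 to 9.82 on replicate 3. Replicate 1 was thus 3.67-fold above the mean of the others. The receptor tyrosine kinase gene Axl had 11.92 to 12.18, 10.78 to 11.17 and 10.29 to 10.60 on the arrays of the 3 numbers. For the transglutaminase gene Tgm2 the difference was 1.43 on the log2 scale, for Ass1, an enzyme of arginine synthesis, 1.60, and for Smpdl3b, a membrane phosphodiesterase, 1.49. These genes were picked for this pattern, so their values carry no test.

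Among the ISGs themselves, the r of each gene with the mean of the others was over 0.9 for 11 of 27, with a median of 0.878. It was 0.99 for Ifit2 and -0.058 for Tor3a.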
